A study of Mus musculus with 2 samples.

Results

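The genes of the CSF1 and RANKL axes, 6 of the 19059 features counted, were read in every nucleus of 8 mouse tumors. They are the CSF1 receptor ligands Csf1 and Il34, their receptor Csf1r, the RANK ligand Tnfsf11, its receptor Tnfrsf11a and the soluble decoy receptor Tnfrsf11b. They were found by gene symbol. The set was selected on these same data, because these genes were already known to be lower in the treated tumors, so the treatment values below are a description and carry no test. The question they address is which class of nuclei in the tumor holds the message for each ligand, which holds its receptor, and where the levels of treated and untreated tumors differ.

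The tumors came from the dFLEx CDS mouse (dFLEx CDS +/- in the untreated group, no genotype listed for the other), in which an allele at Rosa26 encodes CIC::DUX4, the fusion that drives this sarcoma. In both groups plasmids for Cre and FLPE recombinase under the pCAG promoter were electroporated into hind limb muscle to switch the allele on, so any electroporated cell of the muscle could recombine and the mice kept their immune system. Untreated mice (4 tumors) received nothing, and the others (4 tumors) received Minnelide, a water-soluble prodrug of the transcription inhibitor triptolide, at 0.42 mg/kg for 21 days. No vehicle arm, sex or age is given in the labels of these samples.

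CSF1 and interleukin 34 both bind the receptor tyrosine kinase CSF1R on cells of the mononuclear phagocyte lineage, which need the signal to survive and divide. RANKL, the product of Tnfsf11, is displayed by stromal cells, osteoblasts and activated T cells. Together with CSF1 it drives precursors that carry RANK, the product of Tnfrsf11a, to fuse into osteoclasts, the multinucleated cells that resorb bone. Osteoprotegerin, the product of Tnfrsf11b, is secreted and captures RANKL before it reaches RANK.

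Between 18487409 and 73211599 UMIs were counted per tumor in 5210 to 12615 nuclei, with a median of 883 UMIs per nucleus in untreated tumor 4 and of 2329 to 4031 in the others. Filtering and doublet removal left 59907 nuclei in 36 clusters, of which 5973 nuclei stayed unnamed. Of these, 2407 formed a cluster almost wholly of untreated tumor 2, with all 9 tumor markers raised. Its leading genes included the osteoblast marker Ibsp, the osteoclast genes Acp5, Ctsk and Mmp9, the fibroblast marker Col1a1, and Mmp13 and Spp1. Nuclei of 12 classes were named, each written with "-like" since the names rest on marker lists alone. Same-numbered untreated and treated tumors shared 49 to 132 nucleus barcodes and no other pair shared any. The sources used here do not say what this sharing marks in the layout of the libraries, and the numbers were given in file order. The sequencing run is not labelled, so run and treatment cannot be told apart. The labels do not tie tumors to mice, so any error below measures only the spread between these tumors, which may in part be technical.

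On the GRCm39 assembly Csf1 lies at chr3:107648364-107667806 and Tnfsf11 at chr14:78514885-78545490, both on the minus strand. Tnfrsf11a lies at chr1:105708358-105777170 on the plus strand. Il34 lies at chr8:111423928-111532584 and Tnfrsf11b at chr15:54114015-54142075, both on the minus strand. In GENCODE M39 the long Il34 gene shares its span with Vac14 and Mtss2 on the opposite strand. As the treatment of strand in counting is not known here, a contribution of those neighbours to the Il34 counts cannot be told apart. The features used here include no Malat1, Actb, Gapdh or ribosomal protein gene. Whether UMIs were counted from reads along a gene or from probes to it was not settled, and the bearing of such overlaps rests on that.

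RefSeq promoter windows were held for 3 of the 6 genes. These 3 genes, a growth factor, an osteoclast differentiation ligand and its receptor, were lower on average in the treated tumors. Csf1 and Tnfsf11 were highest in fibroblast-like nuclei and Tnfrsf11a in osteoclast-like nuclei. Each run is the 250 bases before the annotated start on the gene's own strand in GRCm38.p6, which are not the coordinates of the counts. Capitals mark matches, on either strand, to a TATA motif (TATAA), a GC box (GGGCGG) or the kappa B element.
Csf1, chr3:107760470-107760719, minus strand: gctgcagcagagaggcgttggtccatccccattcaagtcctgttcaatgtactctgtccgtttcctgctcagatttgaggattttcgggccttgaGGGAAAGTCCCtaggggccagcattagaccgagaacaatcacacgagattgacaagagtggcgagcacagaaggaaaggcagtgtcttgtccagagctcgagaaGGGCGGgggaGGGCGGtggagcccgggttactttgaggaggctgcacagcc
Tnfsf11, chr14:78308044-78308293, minus strand: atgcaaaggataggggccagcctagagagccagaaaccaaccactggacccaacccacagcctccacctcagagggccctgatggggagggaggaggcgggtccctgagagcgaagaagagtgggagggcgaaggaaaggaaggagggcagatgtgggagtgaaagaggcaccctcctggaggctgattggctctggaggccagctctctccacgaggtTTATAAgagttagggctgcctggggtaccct
Tnfrsf11a, chr1:105780473-105780722, plus strand: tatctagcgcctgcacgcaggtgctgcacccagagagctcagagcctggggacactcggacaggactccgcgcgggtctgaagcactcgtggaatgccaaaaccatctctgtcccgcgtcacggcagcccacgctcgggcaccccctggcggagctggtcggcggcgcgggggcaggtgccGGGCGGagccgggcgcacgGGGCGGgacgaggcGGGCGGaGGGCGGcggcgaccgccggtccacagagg

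The 3 windows differed in make-up. The Tnfsf11 window held TATAA matches on both strands that overlapped, between 31 and 26 bases before the start, and no GC box. The Tnfrsf11a window held 4 GC boxes and was 73.6% G and C, against a median of 52.4% over all 32851 windows of the table. The Csf1 window held 2 GC boxes and a kappa B match 155 to 145 bases before the start, whose forward and reverse matches overlapped. Of all windows, 22.8% held TATAA, 32.7% a GC box and 11.3% a kappa B match. An AP-1 motif (TGANTCA, in 6.75% of windows) and a core motif of the myeloid factor PU.1 (GAGGAA, in 23.3%) had no match in these 3 windows.

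Over all deposited nuclei the 6 genes were lower on average in the Minnelide tumors. Csf1 stood at 75.0, 53.4, 59.7 and 35.3 CPM (UMIs of the gene per 1000000 UMIs) in untreated tumors 1 to 4. In Minnelide tumors 1 to 4 it stood at 19.3, 18.6, 21.0 and 21.0 CPM. The treated tumors lay close together and all below the lowest untreated tumor, with an SD of 16.5 CPM (n = 4) untreated and 1.22 CPM treated and a ratio of means of 2.79. Csf1r, at 39.5, 59.6, 40.1 and 21.9 CPM untreated and 15.4, 11.3, 17.3 and 21.1 CPM treated, did not overlap either, with untreated tumor 4 and Minnelide tumor 4 nearly level. Tnfsf11 measured 22.5, 32.2, 45.5 and 29.4 CPM untreated. It measured 5.90, 12.3, 8.29 and 19.1 CPM treated, again without overlap and with the highest treated value in Minnelide tumor 4.

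The other 3 overlapped between the groups. Tnfrsf11a ran from 30.7 to 81.6 CPM untreated and from 15.3 to 31.1 CPM treated, a mean ratio of 2.44. The overlap again came from untreated tumor 4, the shallowest library, and Minnelide tumor 4. Il34 was read at 17.1, 9.44, 14.5 and 6.82 CPM untreated and at 3.40, 6.89, 2.42 and 4.99 CPM treated. Tnfrsf11b was sparse, with 607 UMIs in all, and its means of 3.35 ± 2.43 and 1.59 ± 0.908 CPM differed by less than the SD of the untreated tumors.

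**Figure D1:**
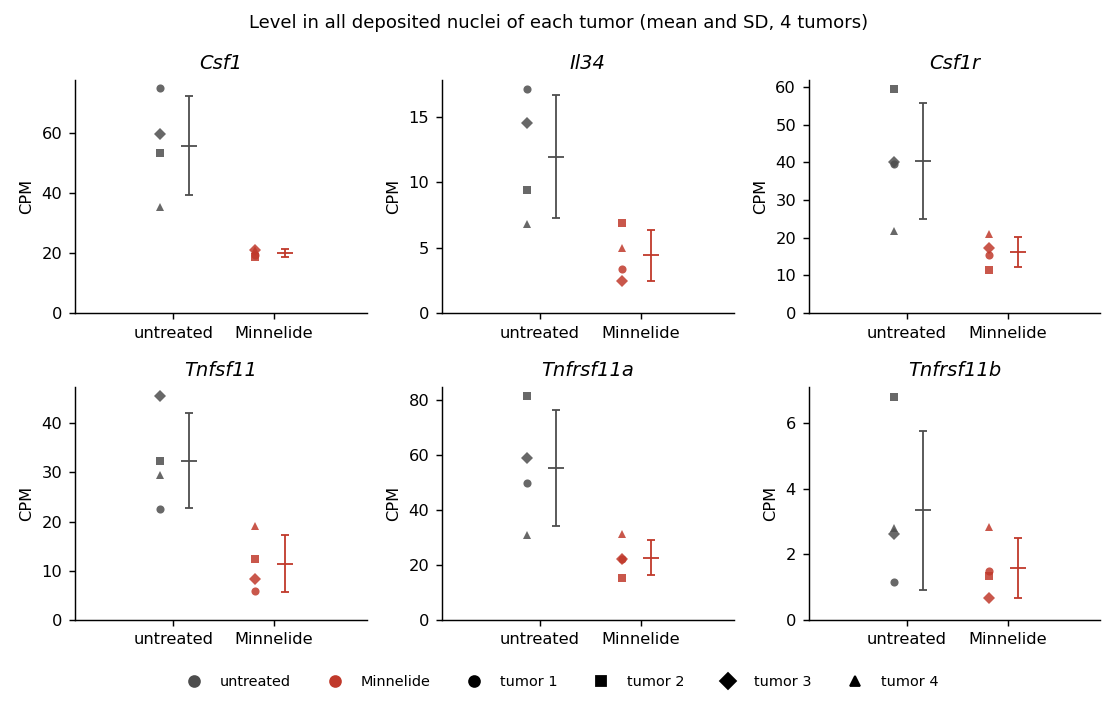
Level of each gene in CPM (vertical axis, from 0) over all deposited nuclei of each tumor, untreated in grey and Minnelide in red, with symbols for tumors 1 to 4 and a bar for the mean and SD of 4 tumors. The Csf1 values of the treated tumors sit between 18.6 and 21.0 CPM, all under the untreated minimum of 35.3 CPM.

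In the edgeR fit over all retained nuclei the log2 fold change, Minnelide against untreated, was -1.36 ± 0.19 (SE) for Csf1, -1.25 ± 0.41 for Il34, -1.21 ± 0.27 for Csf1r, -1.46 ± 0.41 for Tnfsf11, -1.18 ± 0.28 for Tnfrsf11a and -1.30 ± 0.57 for Tnfrsf11b. Between 3.45% and 5.68% of the 13809 genes tested had a lower fold change than these. In the retained nuclei every treated tumor lay below every untreated tumor for 5 of the 6 genes, Tnfrsf11b being the exception, and for 6.82% of all genes tested. This contrast chose the genes, so nothing is read from that count. Calls were rare: 0 of 13809 genes (0%) passed an adjusted p of 0.05 by edgeR's quasi-likelihood test, although 1347 had an unadjusted p under 0.05 and 173 were calls of DESeq2. In sums over all nuclei, fewer nuclei of a class and less message per nucleus cannot be told apart, so levels were taken within each class.

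Classes were ordered by their median where at least 6 tumors had 20 or more nuclei of the class. In that order Csf1 was highest in fibroblast-like nuclei, which were above the next class, endothelial-like nuclei, in all 8 tumors. The median over tumors was 84.7 CPM in fibroblast-like nuclei (range 38.8 to 181), 24.3 in endothelial-like, 24.1 in pericyte-like, 23.0 in myocyte-like and 22.9 CPM in tumor-like nuclei. It was 16.9 CPM in osteoclast-like and 12.1 CPM in macrophage-like nuclei. Classes measured in fewer tumors had medians of 39.5 CPM (osteoblast-like, 2 tumors), 32.9 CPM (T/NK-like, 2 tumors) and 28.8 CPM (smooth muscle-like, 5 tumors), on 14, 8 and 36 UMIs. From endothelial-like to tumor-like nuclei the neighbours in this order did not differ beyond their spread. Each was above the next in only 4 or 5 of the 7 or 8 tumors that could be compared. The 9 tumor markers summed to a median of 4733 to 14897 CPM in the named non-tumor classes, by group, against 18609 and 19962 CPM in tumor-like nuclei. The part of RNA from outside the nucleus in the low Csf1 levels was not tested.

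Which class gave most of the Csf1 message differed between tumors. Tumor-like nuclei gave a median of 50.8% of all Csf1 UMIs of a tumor (range 12.8% to 71.2%), against 63.5% of all UMIs (17.4% to 80.6%). Fibroblast-like nuclei gave a median of 23.3% of the Csf1 UMIs with 9.29% of all UMIs. In untreated tumors 2 and 3 and Minnelide tumor 2 they gave 46.4%, 46.5% and 22.3%, more than the 15.9%, 23.0% and 12.8% of tumor-like nuclei. In Minnelide tumor 2, however, myocyte-like nuclei gave 24.7% and unnamed nuclei 32.7%, more than either. In untreated tumor 1 the tumor-like nuclei stood apart at 76.3 CPM of Csf1, where untreated tumors 2 to 4 had 27.6, 34.0 and 34.3 CPM. The treated tumors had 16.6, 13.6, 18.2 and 13.5 CPM, all below the untreated ones with or without untreated tumor 1. The 9 endothelial markers summed to 2833 CPM in tumor-like nuclei of untreated tumor 1, to 442 to 713 CPM in those of the other untreated tumors and to 378 to 660 CPM in the treated ones. Their part in its Csf1 level was not tested.

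Il34 was highest in another class. Pericyte-like nuclei, the contractile cells that wrap capillaries, held it at a median of 182 CPM over 7 tumors (range 60.3 to 273). Smooth muscle-like nuclei, measured in 5 tumors, had a median of 80.7 CPM and reached 284 CPM in untreated tumor 1. Osteoclast-like nuclei came next among classes seen in all tumors, at a median of 46.5 CPM and below pericyte-like nuclei in 7 of 7 tumors, with 36.1, 95.6, 141 and 56.9 CPM untreated and 0, 13.4, 12.7 and 72.4 CPM treated. These rest on 11, 65, 124 and 16 UMIs untreated and on 0, 2, 4 and 28 UMIs treated. The 7 pericyte markers summed to a median of 293 CPM in untreated and 334 CPM in treated osteoclast-like nuclei. Their part in the Il34 values was not tested. In fibroblast-like nuclei the Il34 median was 6.58 CPM, and in endothelial-like, tumor-like, myocyte-like and macrophage-like nuclei it was at most 4.81 CPM. The class with the highest level was not the one with the largest share of all Il34 UMIs, whose medians were 22.2% for tumor-like (range 7.94% to 46.2%), 15.2% for pericyte-like (8.14% to 36.0%) and 9.40% for osteoclast-like nuclei (0% to 38.2%).

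Tnfsf11 was a fibroblast-like message. Its median was 155 CPM in fibroblast-like nuclei (range 40.9 to 182), and the lowest tumor of that class exceeded the highest value of the next class, pericyte-like nuclei, at 16.4 CPM. Fibroblast-like nuclei gave a median of 60.0% of all Tnfsf11 UMIs with 9.29% of all UMIs. Tumor-like nuclei gave a median of 20.2% (range 7.21% to 38.2%) and unnamed nuclei 11.1% (up to 33.6%). T/NK-like nuclei, in the 2 tumors with at least 20 of them, had 79.9 CPM in untreated tumor 1 and 71.1 CPM in untreated tumor 2, from 10 and 4 UMIs. Every other class had a median of at most 14.4 CPM. In osteoblast-like nuclei, the bone-forming class and a known source of RANKL, Tnfsf11 was 10.2 and 0 CPM in the 2 tumors that had them. These rest on 3 and 0 UMIs, and part of the fibroblast-like nuclei also had raised osteoblast markers (cluster 10, below).

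**Figure D2:**
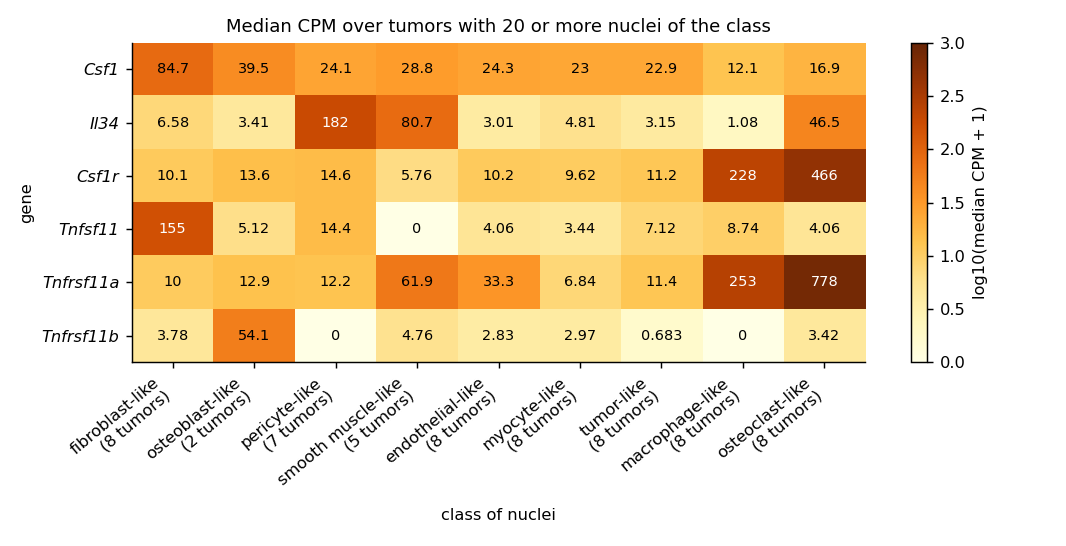
Median CPM of each gene (rows) in each class of nuclei (columns, with the number of tumors that had at least 20 nuclei of it), printed in the cells and shaded as log10 of the median plus 1. Tnfsf11 and Csf1 are darkest in the fibroblast-like column, Il34 in the pericyte-like column, and Csf1r and Tnfrsf11a in the osteoclast-like and macrophage-like columns.

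Both receptors were held by the phagocyte classes, which were named without using them. Csf1r lies on the plus strand at chr18:61229714-61266535 in GRCm39 and shares part of its span with Hmgxb3 on the opposite strand, so reads of the latter in its counts cannot be told apart. Osteoclast-like nuclei, 745 in all and named from Acp5, Ctsk, Mmp9, Atp6v0d2, Dcstamp, Ocstamp, Oscar and Itgb3, had a median of 466 CPM of Csf1r and of 778 CPM of Tnfrsf11a. Macrophage-like nuclei, 1350 in all, had 228 and 253 CPM. In each of the 8 tumors the osteoclast-like level exceeded the macrophage-like level for both receptors, and the ranges of macrophage-like nuclei did not meet those of the next class. Among the other classes measured in at least 6 tumors the Csf1r median ran from 14.6 CPM in pericyte-like to 9.62 CPM in myocyte-like nuclei, a class not known for this receptor, whose range was 0 to 37.6 CPM. T/NK-like nuclei had 7.99 and 71.1 CPM in 2 tumors, from 1 and 4 UMIs. The part of RNA from outside the nucleus in these levels was not tested.

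After both phagocyte classes Tnfrsf11a was highest in endothelial-like nuclei, among the classes measured in at least 6 tumors. They had a median of 33.3 CPM, where tumor-like nuclei had 11.4 and myocyte-like nuclei 6.84 CPM, and were above pericyte-like nuclei in 6 of 7 tumors. Untreated tumor 1 was far above the rest at 97.0 CPM, where the other untreated tumors had 31.6, 34.1 and 26.4 CPM and the treated tumors 32.5, 37.7, 41.4 and 26.3 CPM. The 9 endothelial markers summed to 7702 CPM in endothelial-like nuclei of untreated tumor 1 and to 3895 to 7482 CPM in those of the other 7 tumors. Smooth muscle-like nuclei reached 61.9 to 65.3 CPM in 3 of 5 tumors, from 4 to 13 UMIs each.

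Although few, the phagocyte nuclei carried a large part of the receptor message. Osteoclast-like nuclei held a median of 1.29% of all UMIs but 28.1% of the Csf1r and 39.7% of the Tnfrsf11a UMIs. Macrophage-like nuclei held a median of 11.2% of the Csf1r and 10.3% of the Tnfrsf11a UMIs, with 1.15% of all UMIs. Tumor-like nuclei still gave 32.9% and 23.7%, at low CPM within the class.

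Tnfrsf11b, the decoy receptor, had no clear home among the abundant classes. Fibroblast-like and osteoclast-like nuclei had medians of 3.78 and 3.42 CPM and were each above the other in 4 of 8 tumors. Osteoclast-like nuclei of untreated tumor 2 stood at 47.1 CPM, from 32 UMIs. Osteoblast-like nuclei had 40.9 CPM in untreated tumor 2 and 67.3 CPM in untreated tumor 3, from 12 and 6 UMIs. The exact 95% Poisson intervals of the osteoblast-like values, 21.1 to 71.5 and 24.7 to 147 CPM, cover counting error only. In macrophage-like nuclei there were 0 UMIs in all 8 tumors, which allows a level of up to 0.820 CPM. Over all retained nuclei its fold change was -0.83 without untreated tumor 2. In fibroblast-like nuclei it was 0.55 ± 0.69, on 4 to 26 UMIs a tumor.

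Within fibroblast-like nuclei both Csf1 and Tnfsf11 were lower on average in the treated tumors. Fibroblast-like Csf1 was 134, 181, 164 and 74.1 CPM in the untreated tumors and 38.8, 43.3, 49.8 and 95.3 CPM in the treated ones. Only Minnelide tumor 4 reached into the untreated range, and the log2 fold change was -1.27 ± 0.35. The Csf1 fold change was -1.06 ± 0.45 in endothelial-like and -1.31 ± 0.28 in tumor-like nuclei. Fibroblast-like Tnfsf11 was 154, 156, 176 and 177 CPM untreated. Treated, it was 40.9, 75.9, 52.8 and 182 CPM, so 3 tumors lay far below the untreated ones and Minnelide tumor 4 lay above them all. The log2 ratio of group means was -0.92 with all tumors and -1.55 without Minnelide tumor 4. No gene of the 6 was free of overlap in fibroblast-like nuclei, where 3.74% of 11458 genes had every treated tumor below every untreated one.

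**Figure D3:**
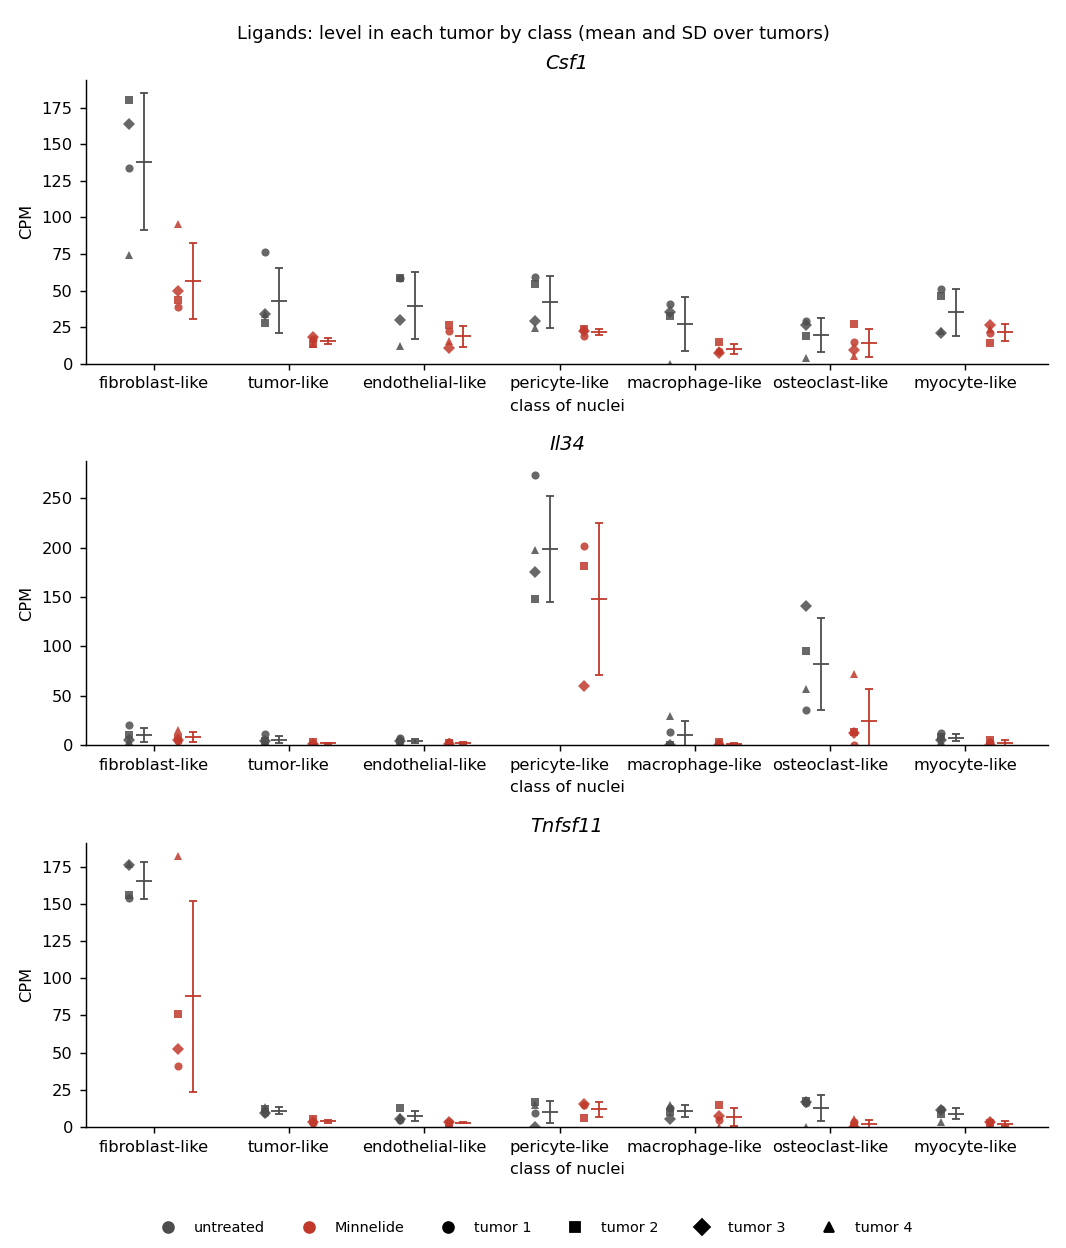
Csf1, Il34 and Tnfsf11 in CPM (vertical axes, from 0) by class of nuclei for each tumor with at least 20 nuclei of the class, untreated in grey and Minnelide in red, with the mean and SD over tumors. In fibroblast-like nuclei Minnelide tumor 4 (triangle) sits at 182 CPM of Tnfsf11, while the other treated tumors lie between 40.9 and 75.9 CPM.

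Fibroblast-like nuclei fell into 3 clusters, and Tnfsf11 differed between them. Cluster 10, led by Pdzrn4, Brinp3, Mmp13 and Inhba, had more Tnfsf11 than cluster 3, led by Itgbl1, Kif26b and Abi3bp, in 7 of 7 tumors. After the fibroblast markers, osteoblast markers scored highest in cluster 10, with 3 of 4 raised, and in cluster 18, with 2 of 4 raised. In cluster 3 pericyte markers came second. The fibroblast-like name therefore does not set cluster 10 apart from bone-forming cells. In cluster 10 it was 205, 206 and 242 CPM in untreated tumors 2 to 4 and 59.8, 178, 128 and 275 CPM in Minnelide tumors 1 to 4. In cluster 3 it was 55.8, 113 and 88.2 CPM untreated and ran only from 37.5 to 46.1 CPM treated. Untreated tumor 1 had a cluster nearly of its own, cluster 18, at 156 CPM.

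Outside untreated tumor 1, the tumors with large shares of cluster 10 had the higher class levels of Tnfsf11. Among these tumors the level did not follow the order of the shares. In untreated tumor 1 the share was only 0.462%, beside 154 CPM of Tnfsf11 in the class. The share was 62.0%, 62.2% and 49.2% of the fibroblast-like nuclei in untreated tumors 2 to 4, but 3.98%, 21.2% and 8.65% in Minnelide tumors 1 to 3. Minnelide tumor 4, whose fibroblast-like Tnfsf11 was as high as in the untreated tumors, had 56.4%. Its part in the class difference was not tested. Csf1 did not follow the clusters in this way, as cluster 10 was above cluster 3 in only 3 of 7 tumors. In cluster 10 Csf1 was 207, 202 and 81.5 CPM untreated and 35.2, 37.8, 25.6 and 81.7 CPM treated, and in cluster 3 it was 106, 81.4 and 63.0 CPM untreated and 39.1, 45.5, 52.6 and 114 CPM treated. In both clusters Minnelide tumors 1 to 3 lay below all 3 untreated tumors and Minnelide tumor 4 did not.

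**Figure D4:**
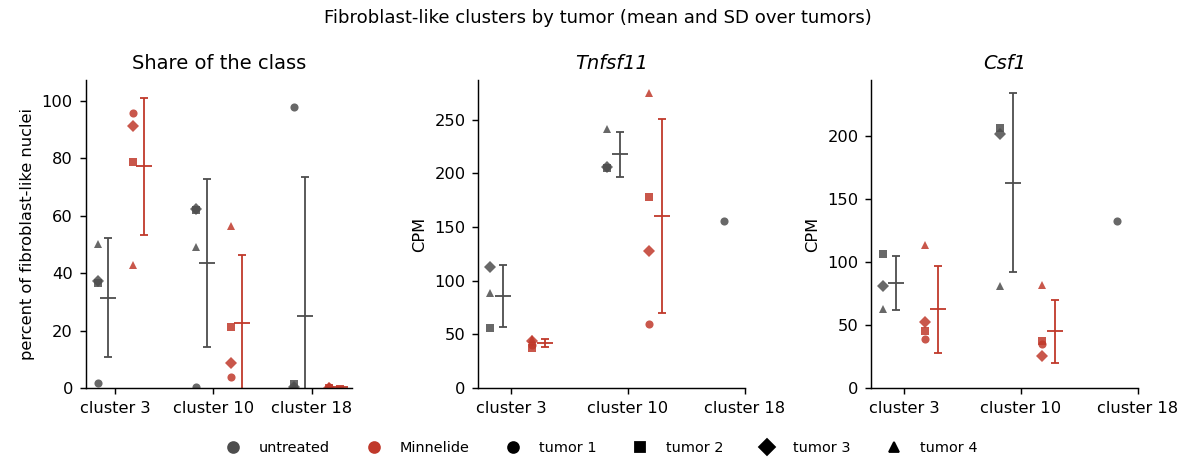
Share of fibroblast-like nuclei in clusters 3, 10 and 18 (left, percent) and the levels of Tnfsf11 (middle) and Csf1 (right) in CPM, per tumor with the mean and SD over tumors. Cluster 18 is almost wholly untreated tumor 1. Cluster 10 carries 59.8 to 275 CPM of Tnfsf11 and cluster 3 carries 37.5 to 113 CPM.

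Receptor levels in the classes that hold them overlapped between the groups. Macrophage-like Csf1r was 236, 280, 219 and 263 CPM untreated and 190, 147, 220 and 283 CPM treated, a log2 fold change of -0.25 ± 0.21. Macrophage-like Tnfrsf11a was 198, 303, 244 and 365 CPM untreated and 255, 109, 252 and 519 CPM treated, at 0.03 ± 0.39. Osteoclast-like Csf1r was 505, 509, 463 and 583 CPM untreated. Treated, it was 248, 469, 328 and 362 CPM, with only Minnelide tumor 2 reaching the untreated range, at -0.51 ± 0.22. Osteoclast-like Tnfrsf11a was 1013, 878, 677 and 970 CPM untreated and 612, 1025, 493 and 538 CPM treated, at -0.36 ± 0.27. Its log2 ratio of group means was -0.41, and -0.69 without Minnelide tumor 2. Pericyte-like Il34 had a log2 ratio of -0.42, which ran from -0.71 without Minnelide tumor 1 to -0.05 without Minnelide tumor 3 and was -1.09 with nuclei named 1 by 1. The groups overlapped for both genes tested in macrophage-like nuclei (background 1.3% of genes), for all 3 tested in endothelial-like nuclei (3.3%) and for all 3 tested in osteoclast-like nuclei (4.62%). Endothelial-like Tnfsf11, which was not in the fit, did not overlap. It was 4.78 to 12.6 CPM untreated and 2.10 to 3.34 CPM treated, on 56 UMIs in all. Csf1 did not overlap in pericyte-like and smooth muscle-like nuclei either, on 71 and 36 UMIs. These values rest on few counts and have no share over all genes beside them.

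**Figure D5:**
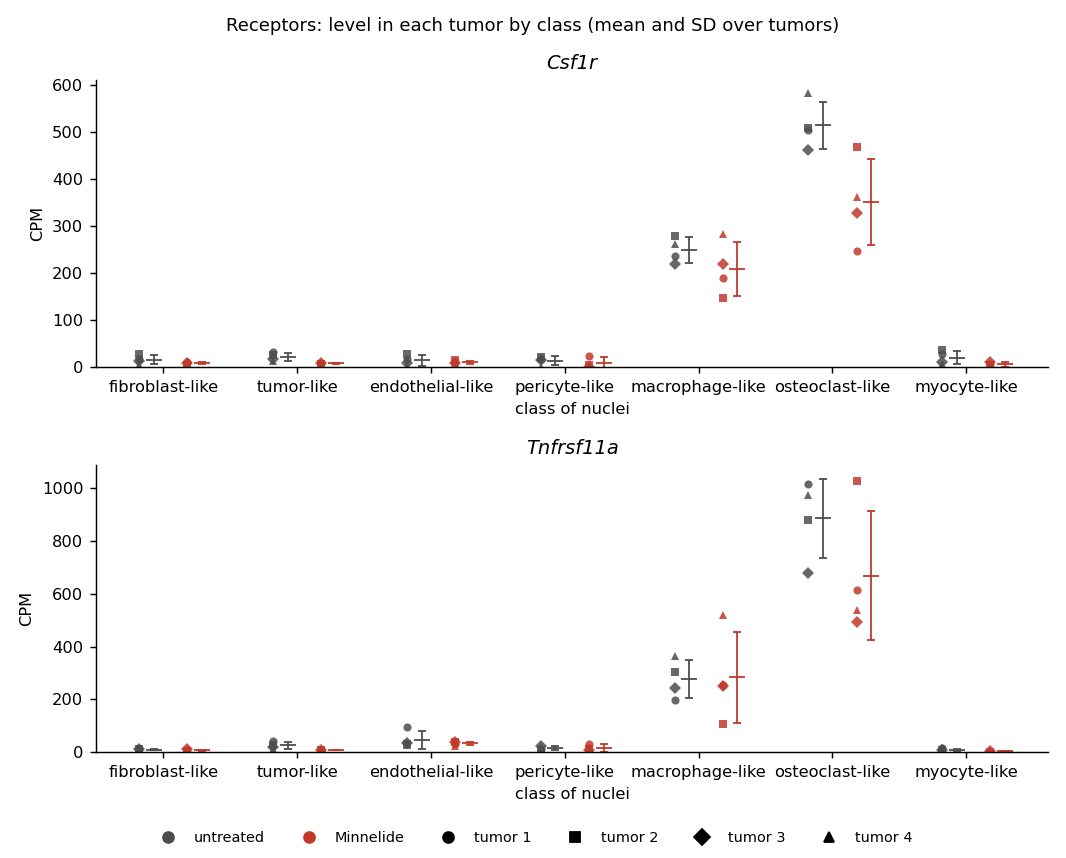
Csf1r and Tnfrsf11a in CPM (vertical axes, from 0) by class of nuclei for each tumor, untreated in grey and Minnelide in red, with the mean and SD over tumors. Both are highest in osteoclast-like nuclei, between 248 and 583 CPM for Csf1r and between 493 and 1025 CPM for Tnfrsf11a, and the groups overlap in both phagocyte classes.

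In tumor-like nuclei the receptors were low, and neither overlapped between the groups. Csf1r was 32.1, 26.3, 16.7 and 13.9 CPM untreated and 8.42, 7.54, 8.55 and 7.74 CPM treated. Tnfrsf11a was 43.2, 29.5, 20.5 and 14.0 CPM untreated and 7.80, 8.38, 8.83 and 8.67 CPM treated. All 5 genes tested in tumor-like nuclei were below every untreated tumor in every treated one, against 6.11% of 12695 genes. The genes were chosen as lower in these same tumors, so nothing is read from that count. Myocyte-like nuclei were not fitted, so no share over all genes stands beside their values. There Tnfrsf11a did not overlap, at 7.71 to 15.4 CPM untreated and 2.94 to 5.96 CPM treated. It rests on 182 UMIs, of which 106 were in untreated tumor 1. Tnfsf11 (149 UMIs) did not overlap there either, while Csf1r did. Most tumor-like clusters were made up of a single tumor, so the groups were compared over different clusters. The 8 osteoclast markers in tumor-like nuclei summed to 361 to 939 CPM untreated and 281 to 596 CPM treated, and the 10 macrophage markers to 179 to 688 and 180 to 273 CPM. None of these markers was at 0 in tumor-like nuclei of any tumor. Their part in the receptor difference was not tested.

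Shares of the receptor-bearing classes varied widely among tumors. Osteoclast-like nuclei made up 0.613%, 2.90%, 3.39% and 0.916% of retained nuclei in the untreated tumors and 0.655%, 0.557%, 0.575% and 1.86% in the treated ones. Macrophage-like nuclei ranged from 0.405% to 5.65% untreated and from 0.984% to 2.57% treated. Osteoclast-like nuclei contributed 6.08, 28.5, 23.3 and 17.1 CPM of the Tnfrsf11a level of untreated tumors 1 to 4 and 3.31, 5.58, 4.06 and 11.9 CPM in the treated tumors. Minnelide tumor 4, which kept the highest osteoclast-like share of the treated tumors, also had the highest Tnfrsf11a of them over all nuclei. When 6 classes were given the same shares in every tumor, the log2 ratio of group means was -0.72 for Tnfrsf11a and -0.90 for Csf1r, where unweighted it was -1.33 and -1.36. For Csf1 the ratio was -1.30 with equal shares and -1.52 without. The equal-share values leave out unnamed nuclei and classes with under 20 nuclei in any tumor. The unweighted values cover all retained nuclei, so the 2 differ in nuclei as well as in weights.

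By the words in the file names, Minnelide tumors 1 and 2 are responders and Minnelide tumors 3 and 4 nonresponders, which the labels do not give, so the values are only set side by side. Fibroblast-like Tnfsf11 was 40.9 and 75.9 CPM under the first word and 52.8 and 182 CPM under the second. Fibroblast-like Csf1 was 38.8 and 43.3 CPM beside 49.8 and 95.3 CPM. Osteoclast-like Csf1r was 248 and 469 CPM beside 328 and 362 CPM, and osteoclast-like Tnfrsf11a 612 and 1025 CPM beside 493 and 538 CPM. Over all deposited nuclei Csf1 was 19.3 and 18.6 CPM beside 21.0 and 21.0 CPM, and Tnfrsf11a was 22.1 and 15.3 CPM beside 22.1 and 31.1 CPM.

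The wider pathways were described from lists, without the 6 genes. The lists were chosen with earlier results of these data known, so nothing is read from their counts. Of 22 partners and signaling genes of CSF1R, 0 were called by edgeR and 21 had a fold change below 0 over all retained nuclei, with a median of -0.38 beside 0.01 for all genes. The range ran from -2.70 ± 0.80 for Ptprz1, a receptor phosphatase that also binds interleukin 34 (5.74 CPM untreated, 0.818 CPM treated), to 0.20 ± 0.10 for Sos1, a RAS exchange factor. Of 23 RANK partners and signaling genes, 0 were called and 17 were below 0, with a median of -0.17. They ran from -2.01 ± 0.54 for Tnfsf10, the ligand TRAIL that osteoprotegerin also binds, to 0.17 ± 0.13 for the kinase Mapk8. All 8 tested genes of the other colony-stimulating factor list were below 0, from -1.47 ± 0.56 for the receptor Kit to -0.33 ± 0.24 for its ligand Kitl, and 0 were called. Over all genes 49.2% were below 0.

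Genes of the cells that answer these ligands were mostly below 0. Their lists too were chosen with earlier results known, and some of their genes, such as Dcstamp and Mertk, also served to name the classes. Of 10 osteoclast genes, 9 were below 0 over all nuclei with a median of -1.43, from -1.92 ± 0.74 for the fusion gene Dcstamp to 0.51 ± 0.48 for the integrin Itgb3. Within osteoclast-like nuclei all 10 were below 0 with a median of -0.62, where 50.2% of all genes were below 0. Of 11 macrophage genes the 10 tested were below 0 over all nuclei with a median of -1.05, from -1.70 ± 0.81 for the complement gene C1qc to -0.04 ± 0.22 for the clearance receptor Mertk. Within macrophage-like nuclei 8 of 9 were below 0 with a median of -0.36, where 51.5% of all genes were below 0. No gene of either list was called by edgeR in any fit. Calls in the classes were as rare as over all nuclei: 0 of 12695 genes in tumor-like, 0 of 6846 in macrophage-like and 0 of 9792 in endothelial-like nuclei (each 0%), while 1282, 314 and 836 genes passed an unadjusted 0.05 and the calls by DESeq2 were 156, 0 and 20. In fibroblast-like nuclei 1 gene was called (0.00873%), Sned1, a matrix protein gene, at -1.48 with an adjusted p of 0.040 by edgeR. In osteoclast-like nuclei 1 gene was called (0.0169%), the ephrin receptor gene Epha3, at 2.13 with an adjusted p of 0.039 by edgeR. Both were named after their values were seen.

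Sned1 was also the gene whose levels ran most like those of Csf1 over 52 sums of a class in a tumor, at Pearson r = 0.79, among 13417 genes. Aspg and Kng2 followed at 0.79 and 0.77. Tnfsf11 ran most like the extracellular matrix genes Spon1 (0.85) and Col12a1 (0.79) and the collagen mRNA-binding protein gene Larp6 (0.79). Csf1r ran most like Clec4a2, a C-type lectin gene (0.94), Gpr137b (0.93) and Slc37a2 (0.92). Tnfrsf11a ran most like Shtn1 (0.94), Ppm1h (0.94) and the leukocyte adaptor gene Lcp2 (0.94). Il34 ran most like Pip5k1b (0.80), Pde8b (0.79) and Steap4 (0.79), and Tnfrsf11b, with few UMIs, less closely like Pcdh7 (0.63), Bhlhe40 (0.61) and Srgap3 (0.61). The sums share libraries, so these values only describe likeness.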

How the data were processed

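Nuclear RNA of 8 tumors was sequenced by the study on the 10x Genomics 3′ platform with on-chip multiplexing, and each of 2 GEO samples held the count matrices of 4 tumors. For every gene and nucleus the authors deposited a raw UMI count, obtained with Cell Ranger against mm39 with intronic reads included. The submitters' processing notes name Cell Ranger 7.0.1 and bcl2fastq 2.20, whereas the matrix headers give Cell Ranger 9.0.1. The 19059 features used here include no Malat1, Actb, Gapdh or ribosomal protein gene, as a probe panel might, while the sources describe a 3′ kit. Which assay made the matrices was not settled. How strand was treated in counting is not given in the sources used here.

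Matrices were treated as tumors and as the unit of replication. Tumors were numbered by file order, and a shared number was not taken as a pairing. The 6 genes and all gene lists were chosen with earlier results of these data known. Levels are UMIs of a gene per 1000000 UMIs (CPM) in summed nuclei. Nuclei with under 200 genes, or called compromised (posterior 0.75 or more) by a mixture model of mitochondrial percent on detected genes, were removed. Doublets were then removed with Scrublet in scanpy 1.11.5 at 0.8% per 1000 nuclei. Nuclei were clustered on 2000 variable genes, from which the 6 genes were left out, with 30 principal components, 40 neighbors and Leiden resolution 1. A cluster was named from marker lists, by its fold, with 20 CPM added, over the 10th percentile of the clusters of the same tumor, and a name needed 3 markers raised 1.5-fold in at least 5% of nuclei. No name was given where markers of another class outnumbered its own among the 10 leading genes, where it had none there and under 50% of its markers were raised, or where the top 2 classes lay within 0.25 on the log2 scale. This naming rule was set after the clusters had been seen. Macrophage-like and mural clusters were sub-clustered. Class levels used tumors with at least 20 nuclei of the class. Counts summed per tumor were fitted with the quasi-likelihood test of edgeR 4.0.16 in R 4.3.3, separately for all retained nuclei and for each of 5 classes, with Benjamini-Hochberg adjustment and a threshold of 0.05. The fitting script was tested on simulated counts. DESeq2 1.42.0, an unfiltered gene list, other nucleus filters, other clustering, naming nucleus by nucleus and leaving out each tumor were tried as alternatives. Whole-matrix levels and ratios of group means were added as alternatives after the data were seen.

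The genes named in the text are the 6 genes, every list gene called (failing that, the list genes with the lowest and the highest log2 fold change over all nuclei) and the 3 genes whose log2(CPM + 1) correlated best with each of the 6 over sums of at least 50 nuclei, among genes with at least 200 UMIs. Poisson intervals cover counting error only. Labels give no treatment response, so values under the response words of the file names are set side by side without a test.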

Additional observations from a re-analysis of the deposited data

Results flagged for a closer look

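In 3 of the 59 groups of 4 tumors with enough counts, a tumor stood apart from the others of its group beyond Dixon's 95% critical value, and chance alone flags about 1 group in 20. Each was untreated tumor 1. Its tumor-like nuclei had 76.3 CPM of Csf1, where the other untreated tumors had 27.6 to 34.3 CPM. Its endothelial-like nuclei had 97.0 CPM of Tnfrsf11a, where the others had 26.4 to 34.1 CPM. Its myocyte-like nuclei had 15.4 CPM of Tnfrsf11a, where the others had 7.71 to 8.56 CPM. These values rest on 2667, 142 and 106 UMIs. Of the 106, 64 came from cluster 12, which had 31.1 CPM, while cluster 17 of the same tumor had 7.94 CPM. Cluster 12 had a median of 941 UMIs per nucleus and also raised 7 of 8 fibroblast and all 9 tumor markers.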

How the results depend on the processing

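No paired analysis was possible because the tumors carry no replicate number in the labels. The barcodes shared by same-numbered tumors name no common animal or batch and were not used as a block. The fold changes of the 6 genes over all retained nuclei kept their direction under all 84 alternative values, and 82 moved by less than the spread between tumors. With the same class shares in every tumor the log2 ratio of group means was -0.72 for Tnfrsf11a and -0.65 for Tnfrsf11b. Over all retained nuclei, unweighted and with unnamed nuclei included, it was -1.33 and -1.42. Leaving out each tumor in turn gave -1.50 to -1.26 for Csf1, -1.58 to -1.02 for Il34, -1.37 to -1.01 for Csf1r, -1.83 to -1.23 for Tnfsf11, -1.44 to -1.04 for Tnfrsf11a and -1.60 to -0.83 for Tnfrsf11b. In the class with the highest level all 71 alternative values kept their direction and stayed within the spread between tumors. That class was the same under 4 alternatives, except that without the mitochondrial filter Tnfrsf11b, which has few UMIs, was highest in endothelial-like nuclei.

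Counts of called genes depended on the tool. DESeq2 called 173 genes over all nuclei, 156 in tumor-like, 46 in fibroblast-like, 20 in endothelial-like and 53 in osteoclast-like nuclei. The single call in fibroblast-like nuclei became 0 with no filter on low counts, with doublets kept, with no mitochondrial filter, at Leiden resolution 0.5 and with nuclei named 1 by 1. The single call in osteoclast-like nuclei became 0 with doublets kept and with no mitochondrial filter, and 2 with nuclei named 1 by 1. Leaving out each tumor gave 0 to 1 calls over all nuclei and in endothelial-like nuclei, 0 to 2 in fibroblast-like nuclei and 0 in osteoclast-like nuclei. The cause of these changes was not tested. Osteoclast-like nuclei numbered 38 to 222 a tumor and macrophage-like nuclei 42 to 507.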

Other observations

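Unnamed nuclei also held these messages. The cluster of untreated tumor 2 with tumor markers (2302 nuclei of that tumor) also carried Ibsp, Acp5, Ctsk, Mmp9 and Col1a1. It had 32.2 CPM of Csf1, 27.0 CPM of Csf1r, 20.6 CPM of Tnfrsf11a and 12.2 CPM of Tnfsf11. The tumor-like nuclei of that tumor had 27.6, 26.3, 29.5 and 11.9 CPM. An unnamed cluster of untreated tumor 3 (300 nuclei), with endothelial and tumor markers close together and the leading genes Pdzrn4, Frmd5 and Lifr, had 59.5 CPM of Tnfsf11, 62.2 CPM of Csf1 and 44.5 CPM of Tnfrsf11a. An unnamed cluster of Minnelide tumor 3 (1025 nuclei) had 28.7 CPM of Csf1r, against 8.55 CPM in the tumor-like nuclei of that tumor.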
